A study of Mus musculus with 9 samples.

Results

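The rows described are the variable segments of the mouse immunoglobulin heavy chain, that is, every gene of the count table whose symbol begins with Ighv. There are 183 such rows among 46958 genes. All 183 lay on chromosome 12 and had the same start and end as the gene of that symbol in GENCODE M21 (build GRCm38), and together they spanned 2437 kb. The annotation lists 113 of them as variable genes, called functional below, 68 as pseudogenes and 2 as both a variable-like gene and a pseudogene. The number between Ighv and the first hyphen names the family, and the rows fell into 16 families. No library had a count for 32 of the rows.

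The RNA came from splenic CD138+ plasma cells of non-immunized mice aged 3 months, with 1 spleen per library and 3 mice for each of 3 genotypes, WT, kFRA (labelled kFRA (LCDD), for light chain deposition disease) and DH-LMP2A. All mice had a mixed C57/BL6x129/SVxBALB/c background. The cells were taken with CD138 beads to a stated purity above 80%. The labels do not describe the alleles, nor say whether kFRA mice carry the DH-LMP2A allele too. From general knowledge of the DH-LMP2A mouse, and not from the labels, the LMP2A gene of Epstein-Barr virus sits in its heavy-chain locus, in the D region. Total counts per library lay between 15449026 and 21558128. In the Ighv rows, DH-LMP2A replicate 3 and kFRA replicate 2 stood apart from the other libraries of their genotype. Where these 2 libraries move the main group means, folds and calls, values without them are also given. Not every call in the gene lists is repeated in this way.

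As background, a heavy-chain gene is put together in the developing B cell, where the RAG recombinase joins a D segment to a J segment and then a V segment to that pair. The V segment carries the leader peptide and most of the variable domain, and the J end is spliced to a constant region, Ighm first. Segments of a family resemble each other in sequence. The families interleave along the locus, with families 5 and 2 nearest to the D segments and family 1, the most numerous, spread over the part farthest from them. Unrearranged V segments have promoters of their own and can be transcribed. Plasma cells transcribe their rearranged heavy-chain gene at very high levels.

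The sequences printed here belong to the 5 segments on which the results turn: the most used in WT (Ighv1-53), the one that held most of the kFRA counts (Ighv4-1), and the 3 that led what was left in DH-LMP2A (Ighv5-2, Ighv5-6 and Ighv2-2). Each is the last 300 bases of the segment's coding sequence, which lie in its second exon. They were read from the GENCODE M21 transcripts and run 5′ to 3′ on the coding strand, which is the minus strand of chromosome 12 in GRCm38. Capitals mark the codons for Tyr-Tyr-Cys near the 3′ end, where the third complementarity-determining region begins and to which a D segment is joined. The printed stretch is chr12:115158403-115158702 for Ighv1-53, chr12:113948282-113948581 for Ighv4-1, chr12:113578504-113578803 for Ighv5-2, chr12:113625506-113625805 for Ighv5-6 and chr12:113588267-113588566 for Ighv2-2.
Ighv1-53: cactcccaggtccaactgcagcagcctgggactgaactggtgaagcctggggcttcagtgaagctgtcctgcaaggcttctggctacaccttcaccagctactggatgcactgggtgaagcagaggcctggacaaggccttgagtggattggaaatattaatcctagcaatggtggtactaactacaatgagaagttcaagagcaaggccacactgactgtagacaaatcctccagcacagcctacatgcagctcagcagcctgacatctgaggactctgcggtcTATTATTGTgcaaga
Ighv4-1: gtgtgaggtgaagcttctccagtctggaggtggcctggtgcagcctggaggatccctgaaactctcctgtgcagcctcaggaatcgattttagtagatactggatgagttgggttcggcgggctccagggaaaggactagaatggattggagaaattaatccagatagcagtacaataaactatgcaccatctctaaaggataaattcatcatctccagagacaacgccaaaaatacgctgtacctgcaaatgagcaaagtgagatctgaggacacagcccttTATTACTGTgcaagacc
Ighv5-2: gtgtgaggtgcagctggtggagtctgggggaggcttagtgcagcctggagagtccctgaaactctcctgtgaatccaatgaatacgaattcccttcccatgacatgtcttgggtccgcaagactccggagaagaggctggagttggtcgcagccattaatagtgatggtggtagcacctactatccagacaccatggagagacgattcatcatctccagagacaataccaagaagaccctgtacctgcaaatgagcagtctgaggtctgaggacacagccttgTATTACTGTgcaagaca
Ighv5-6: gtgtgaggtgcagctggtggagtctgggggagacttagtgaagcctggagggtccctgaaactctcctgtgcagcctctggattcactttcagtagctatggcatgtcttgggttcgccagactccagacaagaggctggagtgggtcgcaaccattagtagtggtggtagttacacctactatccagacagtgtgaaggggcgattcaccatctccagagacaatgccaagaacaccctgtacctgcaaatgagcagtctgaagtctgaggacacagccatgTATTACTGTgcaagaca
Ighv2-2: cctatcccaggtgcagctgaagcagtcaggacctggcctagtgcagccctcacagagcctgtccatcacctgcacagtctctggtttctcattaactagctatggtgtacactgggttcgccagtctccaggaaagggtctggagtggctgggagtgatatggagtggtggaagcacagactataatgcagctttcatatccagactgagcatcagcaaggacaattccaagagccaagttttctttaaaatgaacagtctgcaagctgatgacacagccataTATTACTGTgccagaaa

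Ighv5-2 and Ighv5-6 were 87.3% identical to each other over the coding sequence. Ighv4-1 was the only segment of family 4 annotated as functional, and was 72.2% identical to Ighv5-2, 74.8% to Ighv5-6 and 61.3% to Ighv1-53. Similar copies limit how reads were assigned. Over the 113 functional segments, the median identity to the nearest other segment was 94.6%, with a range from 72.8% to 99.7%. In 43 of the 113, no stretch of 75 bases, the read length, also occurred in the transcripts of another gene, and in 4 more than 50% of such stretches did. How reads that match several places were counted is not given in the sources used here, so the values of near-identical segments are uncertain. Alleles of the mixed background and hypermutated reads were not analysed here.

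Ighv rows took up 4.81%, 5.39% and 6.19% of all counts in the 3 WT libraries, 0.0284%, 0.0239% and 0.0252% in the kFRA libraries, and 0.000605%, 0.000395% and 0.00124% in the DH-LMP2A libraries. The 3 ranges did not overlap, WT being highest and DH-LMP2A lowest. In counts, WT libraries held 984164, 1162816 and 1248293, kFRA libraries 4395, 4112 and 4485, and DH-LMP2A libraries 125, 73 and 258. The mean share was 5.47% ± 0.693 (SD, n = 3) in WT, 5.44 percentage points above kFRA. The exact 2-sided permutation test gave p = 0.1 for each pair of genotypes, which is the smallest p that 3 against 3 libraries allow. In bulk samples, fewer cells with a rearranged heavy chain and less of its RNA per cell cannot be told apart.

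**Figure D1:**
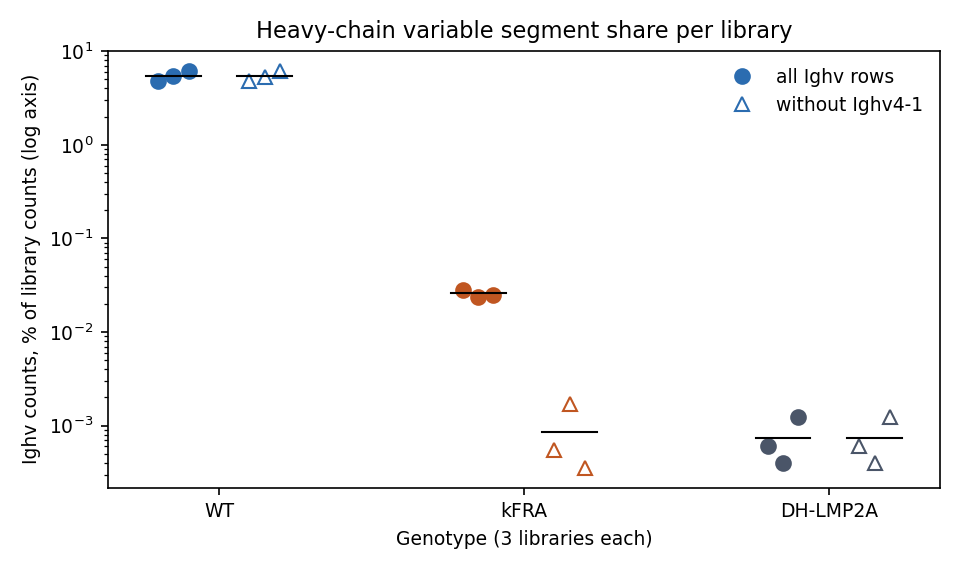
Percent of each library's counts in Ighv rows on a log axis, with 1 point per library and a bar at the mean of 3. Filled circles count all 183 rows and open triangles leave out Ighv4-1. Leaving it out changes WT and DH-LMP2A little and brings kFRA down to 0.000353% to 0.00169%, within which range the DH-LMP2A libraries lie.

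Variable segments were also scarce relative to the constant regions. For every 100 counts of heavy-chain constant regions, WT libraries had 22.0, 22.2 and 22.8 Ighv counts, a spread of 0.435 (SD, n = 3) around 22.3. The kFRA libraries had 3.22, 2.69 and 2.60, and the DH-LMP2A libraries 0.0523, 0.0354 and 0.114. So the constant-region RNA still present in kFRA and DH-LMP2A came with far fewer variable-segment counts than in WT, by an exact 2-sided permutation p = 0.1 in each pair. The gap between kFRA and DH-LMP2A rested on Ighv4-1. Without this segment the kFRA libraries had 0.0616, 0.190 and 0.0365 and the DH-LMP2A libraries 0.0519, 0.0354 and 0.112, which overlapped.

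Ighm, the constant region of IgM, made up most of it. It had 232952, 201866 and 219129 counts in DH-LMP2A and 131699, 146734 and 166907 in kFRA, against 3329576, 3024243 and 2894431 in WT. On the log2 scale Ighm fell by 4.26 (SE 0.392) in kFRA and by 4.12 (SE 0.389) in DH-LMP2A relative to WT, with adjusted p = 9.71e-05 and 0.000171 by edgeR's quasi-likelihood test. All 8 constant regions were called lower than in WT in both genotypes, against 11.1% of all genes in kFRA and 7.3% in DH-LMP2A. Between kFRA and DH-LMP2A, 1 of the 8 passed the test, Ighg1, the constant region of IgG1, which was 2.55 higher in kFRA on the log2 scale (SE 0.598, adjusted p = 0.0428 by the same edgeR test). Across all genes, 5.02% passed in that comparison. The call of Ighg1 was kept in 2 of 6 edgeR fits that left out 1 library, with adjusted p = 0.0691 without DH-LMP2A replicate 3.

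The joining segments were almost silent outside WT. Counts over Ighj1 to Ighj4 were 28079, 32867 and 43531 in WT, 1 in each kFRA library, and 0, 0 and 4 in DH-LMP2A. The 20 D segment rows summed to 155, 132 and 170 counts in WT, and to 0 or 1 in each library of the other genotypes.

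In WT, use was broad but uneven. The most used segment was Ighv1-53 in every WT library, with 11.3%, 10.4% and 8.11% of the Ighv counts (mean 9.94% ± 1.64, SD, n = 3). Ighv1-80 followed with 8.28%, 5.69% and 4.09%, and Ighv1-26 with 6.96%, 7.48% and 3.47%. Their means, 6.02% ± 2.12 and 5.97% ± 2.18 (SD, n = 3), did not differ beyond their spread, and the libraries of Ighv1-80 overlapped those of Ighv1-26. Both lay below Ighv1-53 within each library.

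The next 7 by mean share were Ighv1-9 (4.24%), Ighv9-3 (3.26%), Ighv1-72 (2.83%), Ighv8-12 (2.71%), Ighv1-55 (2.59%), Ighv1-22 (2.54%) and Ighv1-18 (2.53%). Among these 7 the library ranges of neighbours in the order overlapped, so their order is not resolved. A share of counts also depends on a row's length, and 9 of the 10 leading segments were also among the 10 highest per length, Ighv1-55 being 11th. Of the 10, 8 belong to family 1. Ighv1-72 is the most uncertain of them, since 71.7% of its 75-base stretches also occur elsewhere and its coding sequence is 99.1% identical to Ighv1-62-3. Ighv1-80, Ighv1-9 and Ighv8-12 share no such stretch with another gene.

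Each WT library had a count for 137, 143 and 144 of the 183 rows. Just 10, 12 and 13 segments made up 50% of the Ighv counts, and 46, 49 and 48 made up 90%. The 10 most used segments of each library held 51.2%, 45.5% and 43.9%. Only 4 segments were among the 10 highest in all 3 WT mice, while 17 were among the 10 highest of at least 1 mouse. Of the 113 functional segments, 102 had at least 10 counts in every WT library, and Ighv16-1 and Ighv1-16 had none in any, a pair named after their values were seen. Pseudogene rows held 0.336%, 0.245% and 0.252% of the WT Ighv counts, and 14 of them had at least 10 counts in every WT library.

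The inverse Simpson index gives the number of equally used segments that would yield the same chance for 2 counts to fall on the same segment. It was 25.6, 30.2 and 34.1 in WT, and 1.04, 1.16 and 1.03 in kFRA, with no overlap (exact 2-sided permutation p = 0.1). In DH-LMP2A it was 4.50, 4.11 and 27.7, and the third library overlapped the WT range (exact permutation p = 0.2). Because the indices come from very unequal numbers of counts, the expected number of distinct segments was also computed at 73 Ighv counts, the number in the smallest library. At that depth WT libraries gave 34.3, 36.7 and 36.6 segments, DH-LMP2A libraries 11.4, 11 and 34.2, and kFRA libraries 2.26, 5.25 and 1.97. DH-LMP2A replicate 3 thus came close to WT in diversity while holding 258 Ighv counts in all. Without it, the index in WT exceeded that in DH-LMP2A by 25.7 in place of 17.9.

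The low index of kFRA rested on Ighv4-1. With this segment left out, the index was 6.36, 11.2 and 7.97 in kFRA, 4.43, 4.11 and 27.1 in DH-LMP2A and 25.2, 29.7 and 33.8 in WT. The kFRA libraries then lay within the DH-LMP2A range (exact 2-sided permutation p = 1) and still below all WT libraries (p = 0.1 by the same exact test). The expected number of segments at 63 counts, the number in the smallest library without Ighv4-1, was 14.8, 23.9 and 19 in kFRA, 10.2, 10.2 and 31.2 in DH-LMP2A and 31.4, 33.5 and 33.6 in WT. The highest value of each of kFRA and DH-LMP2A was that of the library that stood apart. Without these libraries the mean index was 7.17 in kFRA and 4.27 in DH-LMP2A.

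**Figure D2:**
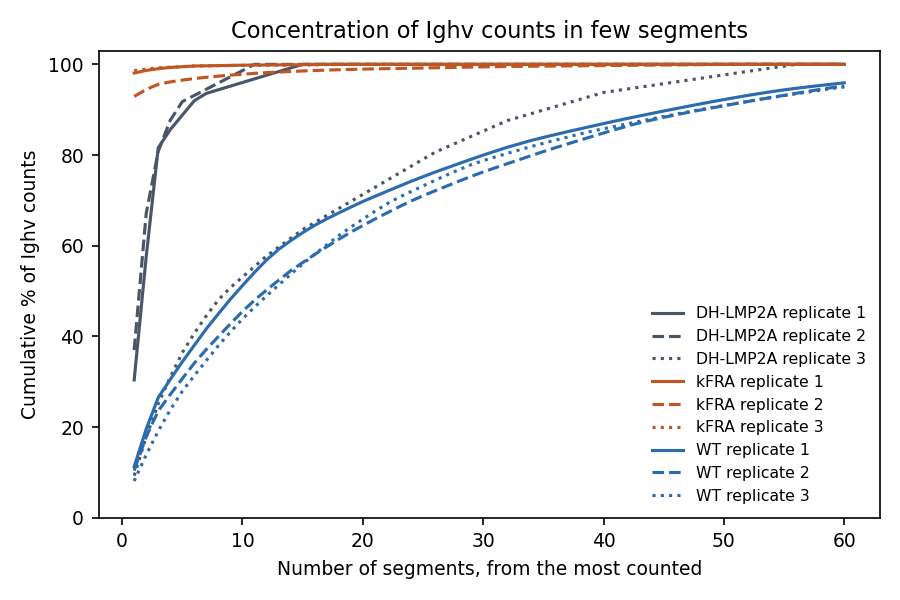
Cumulative percent of Ighv counts against the number of segments, ordered in each library from the most counted. WT libraries need 10 to 13 segments to reach 50%, kFRA libraries need 1, and DH-LMP2A replicates 1 and 2 need 2, whereas DH-LMP2A replicate 3 needs 9 and runs near the WT curves.

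By family, family 1 (92 rows, 53 functional) held 66.8%, 67.4% and 59.9% of the WT Ighv counts, a mean of 64.7% ± 4.14 (SD, n = 3). It was followed by family 5 at 7.37% ± 2.75, family 8 at 4.71% ± 1.44, family 9 at 4.64% ± 0.344 and family 6 at 3.93% ± 0.0422 (each SD, n = 3). Families 2, 3, 10 and 14 had means between 2.58% and 3.21%, family 7 had 1.66% and family 4 had 0.775%. Families 11, 12, 13 and 15 each held less than 0.2% on average, at 0.168%, 0.0471%, 0.178% and 0.0260%. Family 16 had no count in WT. Family 1 was above all others in each mouse. Further down the order by mean, neighbours overlapped between mice except family 9 with family 6, family 4 with family 13, and family 11 with family 12.

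Mice of the same genotype differed more in some families than in others. Family 6 stayed between 3.90% and 3.98%, whereas family 10 stood at 0.876% and 0.901% in WT replicates 1 and 2 and at 6.61% in replicate 3. Family 7 ran from 0.791% to 2.97% and family 14 from 1.69% to 4.05%.

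**Figure D3:**
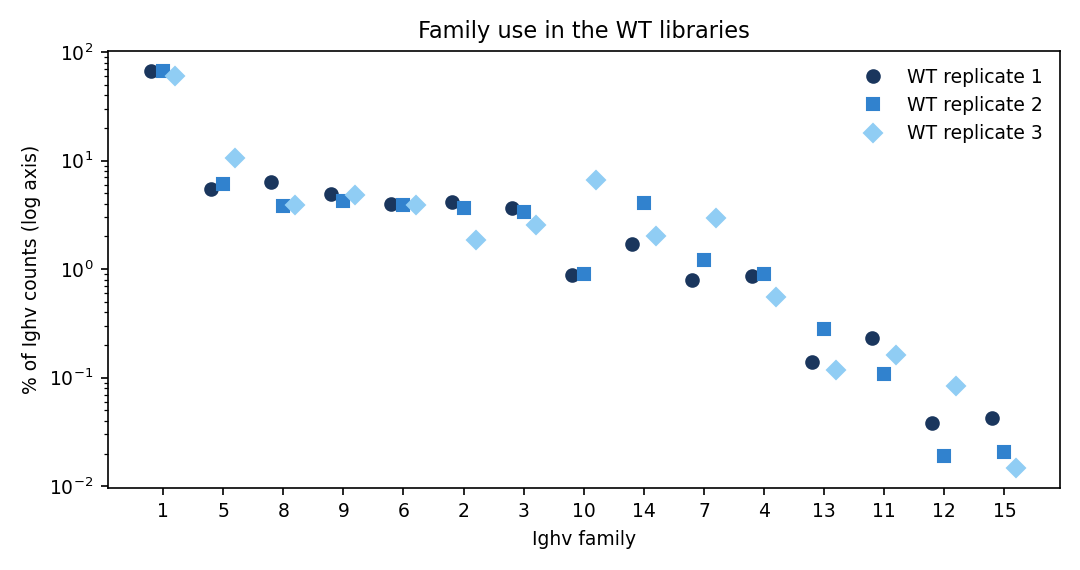
Percent of Ighv counts in each of the 15 families with a count, for the 3 WT libraries, on a log axis and ordered by mean share. Family 1 lies between 59.9% and 67.4%, and family 10 is the family in which replicate 3 stands farthest above the other mice.

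Single segments differed more. Ighv10-3, at chr12:114523441-114523905, had 3509, 5326 and 72478 counts in WT, or 0.357%, 0.458% and 5.81% of the Ighv counts, and ranked among the 3 highest in replicate 3 only. Ighv1-47 had 895, 867 and 40775 counts, a ratio of 43.8 between the highest and the lowest share. Ighv1-20 was likewise highest in replicate 3 (1.28% against 0.0824% and 0.212%). Ighv1-36 was highest in replicate 2 (1.29% against 0.196% and 0.106%), and Ighv2-6 was lowest in replicate 3 (0.111% against 1.42% and 0.806%). Ighv1-47 shares no 75-base stretch with another gene and Ighv10-3 shares 4.95% of its stretches with Ighv10-1.

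Of the 53 segments with a mean WT share of at least 0.5%, the median ratio of highest to lowest share was 2.38. The ratio was at least 2 for 34 segments and at least 5 for 10. Of these 10, 1 was highest in replicate 1, 4 in replicate 2 and 5 in replicate 3. They were thus not all highest in the same mouse. Any 2 WT mice shared 67.2% to 80.7% of their Ighv composition, taken as the sum of the lower of both shares over segments. Spearman's rho between WT libraries over the 113 functional segments was 0.828 to 0.895. It is across segments, which are not independent replicates, and all libraries share the same row lengths and similar copies.

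**Figure D4:**
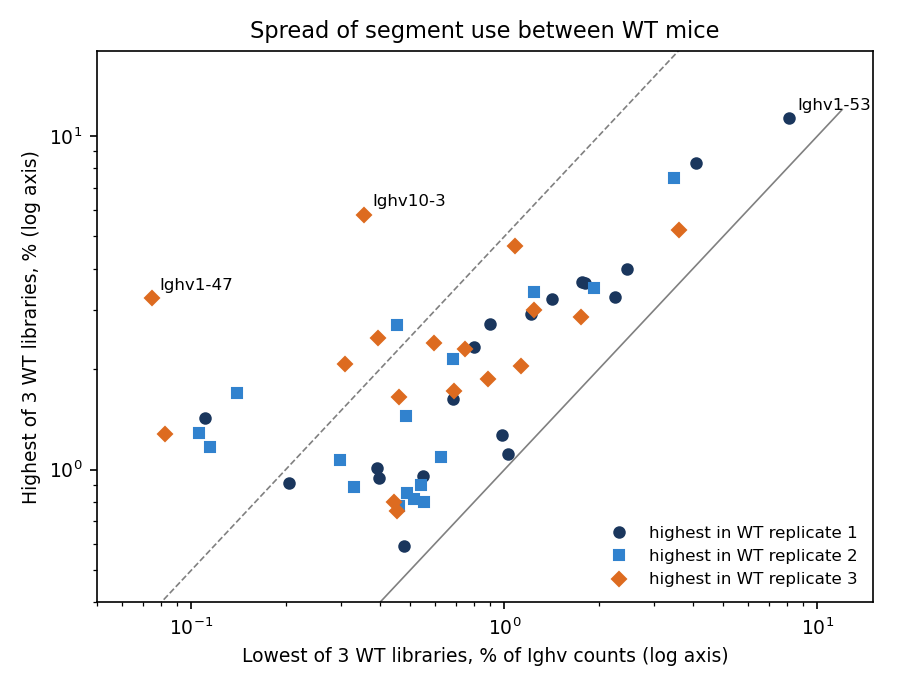
Highest against lowest percent of Ighv counts over the 3 WT libraries, on log axes, for the 53 segments with a mean share of at least 0.5%. The solid line marks equal shares and the dashed line a ratio of 5, and Ighv1-47 and Ighv10-3 lie farthest from equality among the labelled segments.

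WT use was spread along the whole locus. Counted in steps of 200 kb from the segment nearest the D segments (Ighv5-1), the mean share per step was between 0.83% and 12.9%, the lowest being the last step, which holds 3 rows. The first step, with 22 rows of which 13 are functional, held 7.39%, 6.77% and 11.2% of the WT Ighv counts.

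In kFRA, nearly all that remained was counted to Ighv4-1. The labels do not describe the kFRA allele. Gene counts cannot tell reads of this segment from reads of a matching sequence elsewhere in the genome. This segment lies at chr12:113948282-113948796, 375 kb from the D end, and had 4311, 3821 and 4422 counts in the kFRA libraries, or 98.1%, 92.9% and 98.6% of their Ighv counts. It had 1, 0 and 3 counts in DH-LMP2A and 8434, 10467 and 6744 in WT, where it made up 0.857%, 0.900% and 0.540%. The kFRA and DH-LMP2A libraries were thus fully apart, and kFRA lay below WT in counts by much less than any other tested row did. In CPM, the count scaled by edgeR's library factors to a common total, Ighv4-1 stood at 295, 182 and 277 in kFRA and at 427, 534 and 430 in WT.

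Of the 116 Ighv rows that passed the filter on low counts, Ighv4-1 was the only one called between kFRA and DH-LMP2A. Across all genes 5.02% were called in that comparison, 1.73% as higher and 3.3% as lower in kFRA. Its log2 fold change was 11.89 (SE 0.485, adjusted p = 5.38e-07 by edgeR's quasi-likelihood test), higher in 3 of 3 kFRA libraries. As a ratio of pooled counts per total counts, it was 3725 times higher in kFRA, with an exact 95% interval from 1455 to 13675 that covers counting error only. Of the 4 counts in DH-LMP2A, 3 were in replicate 3. Without that library and kFRA replicate 2 the ratio was 10271 (1843 to 405727), and the log2 fold change was 13.14 without DH-LMP2A replicate 3 alone.

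Relative to WT, Ighv4-1 fell by 0.88 in kFRA on the log2 scale (SE 0.268, adjusted p = 0.0498 by the same edgeR test). The ratio of pooled counts per total counts, which leaves out edgeR's library factors and is thus another measure, was 1.66 between WT and kFRA. The call of a fall is marginal, holding in 3 of 14 alternative analyses, over which the adjusted p lay between 0.00434 and 0.153. It was lost when any of the 6 kFRA or WT libraries was left out. In DH-LMP2A it fell by 12.77 relative to WT (SE 0.492, adjusted p = 1.1e-06 by edgeR), and without replicate 3 it fell by 13.97.

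The neighbours of Ighv4-1 did not share its counts. The 3 rows on either side, Ighv7-1, Ighv7-2, Ighv14-1, Ighv3-1, Ighv11-1 and Ighv14-2, named for their position, had 0 counts in kFRA apart from 1 count of Ighv3-1. In WT, Ighv14-1 had 1378, 19733 and 2066 counts and Ighv14-2 had 5077, 9487 and 9340. Of the 75-base stretches of Ighv4-1, 13.5% also occur elsewhere, in the pseudogene Ighv4-2, which had 0, 3 and 2 counts in kFRA and 56, 105 and 156 in WT. The functional segment most like Ighv4-1 was Ighv11-2, at 76.5% identity. The table gives 1 count per row, so where within the segment the kFRA reads lay, and whether they ran into a J segment, cannot be read from it. The J segments had 1 count in each kFRA library.

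Without Ighv4-1, the kFRA libraries held 84, 291 and 63 Ighv counts and the DH-LMP2A libraries 124, 73 and 255. The mean shares of all counts were then 0.000863% and 0.000741%, and the libraries overlapped (exact 2-sided permutation p = 0.9). The difference was not detectable at this depth. Without kFRA replicate 2 and DH-LMP2A replicate 3 the means were 0.000449% and 0.000498%, and the libraries still overlapped.

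In 5 of the 6 kFRA and DH-LMP2A libraries, most of what remained besides Ighv4-1 sat at the D-proximal end, the exception being DH-LMP2A replicate 3. Within 200 kb of that end, DH-LMP2A libraries had 119, 69 and 79 counts, which is 95.2% (exact 95% interval 89.8% to 98.2%), 94.5% (86.6% to 98.5%) and 30.6% (25.1% to 36.6%) of their Ighv counts. In kFRA the same 22 rows had 72, 166 and 50 counts, or 85.7%, 57.0% and 79.4% of the counts other than Ighv4-1. In WT, without Ighv4-1, they held 7.45%, 6.83% and 11.3%, below every library of the other genotypes (exact permutation p = 0.1 for each). With all rows counted, the share in WT minus that in DH-LMP2A was -64.98 percentage points, and -86.40 without DH-LMP2A replicate 3. Without Ighv4-1, the mean share in kFRA was 74.0%, and 82.5% without kFRA replicate 2. This measure was chosen after seeing the data.

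**Figure D5:**
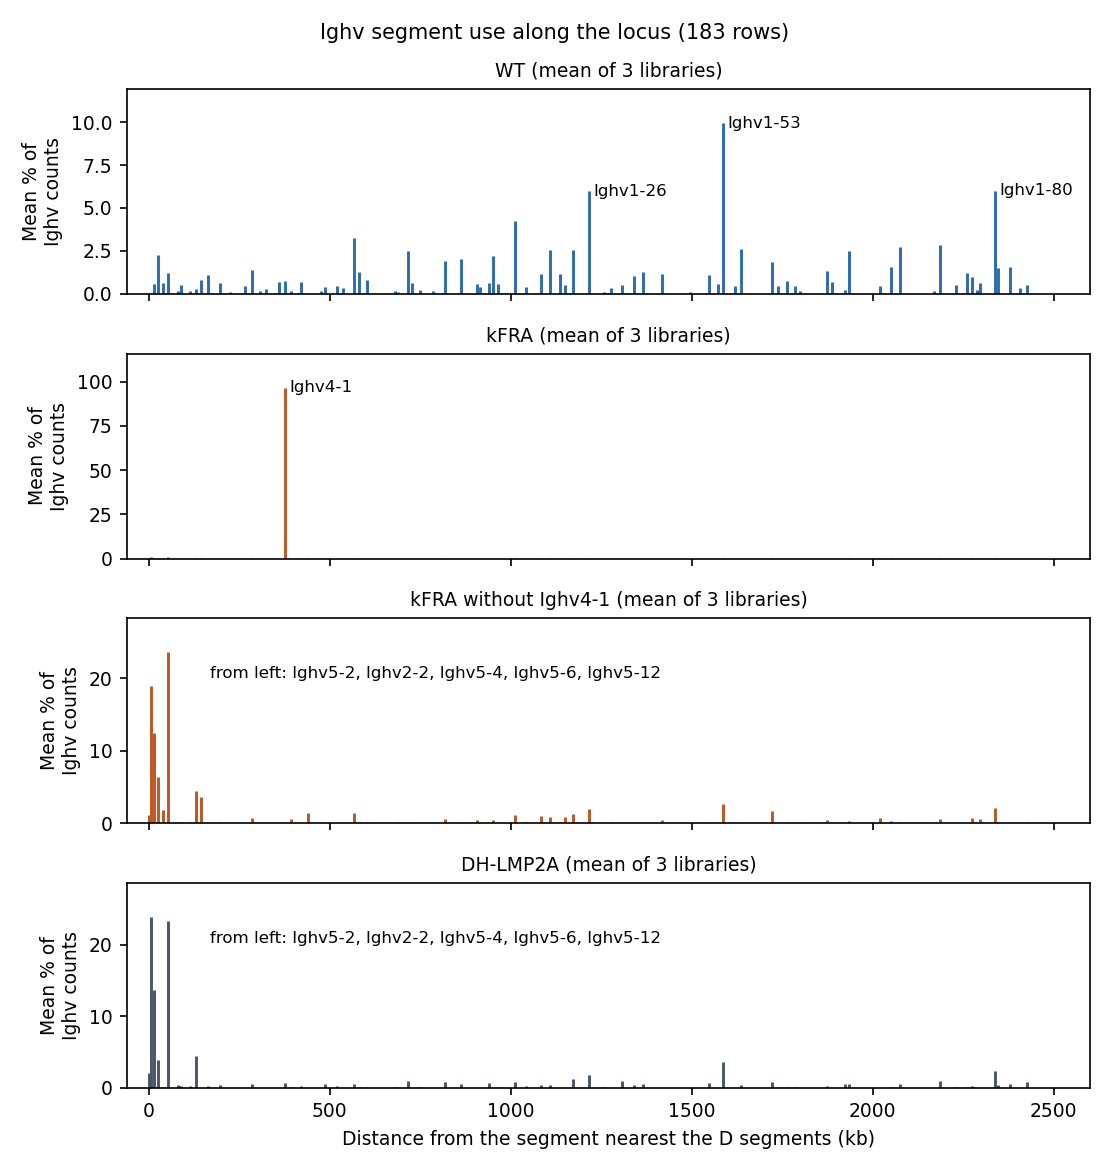
Mean percent of Ighv counts per segment against the distance in kb from the segment nearest the D segments, for WT, kFRA, kFRA without Ighv4-1 and DH-LMP2A (3 libraries each). WT use runs along the whole locus, kFRA shows a single line at Ighv4-1, and the rest of kFRA and DH-LMP2A have their highest mean lines within 200 kb of the D end.

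By pooled counts the same 5 segments led there in both genotypes. Ighv5-6 had 38, 22 and 24 counts in DH-LMP2A and 25, 64 and 12 in kFRA, against 9293, 10329 and 23324 in WT. Ighv5-2 had 34, 27 and 19 counts in DH-LMP2A and 12, 46 and 17 in kFRA, against 692, 281 and 1200 in WT. Ighv2-2 had 30, 10 and 9 counts in DH-LMP2A and 17, 22 and 6 in kFRA, against 4523, 9038 and 5751 in WT. For each of the 3 the kFRA and DH-LMP2A libraries overlapped and lay far below WT.

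Ighv5-12 (1 to 10 counts per library) and Ighv5-4 (3 to 11) came next. Other functional segments of the same window were nearly empty, such as Ighv2-3, with 2, 4 and 1 counts in kFRA and 0, 0 and 1 in DH-LMP2A but 9284, 6915 and 4958 in WT. Ighv5-2 was among the less used segments in WT, at 0.0635% ± 0.0365 of the Ighv counts (SD, n = 3), and shares no 75-base stretch with another gene. Of the stretches of Ighv2-2, 39.6% occur in Ighv2-4 or Ighv2-5.

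The ratios to WT ranged widely between segments. By pooled counts, with exact 95% intervals for counting error, Ighv5-2 was 23.5 times higher in WT than in kFRA (18.7 to 30.0) and 26.2 times higher than in DH-LMP2A (20.9 to 33.1). Ighv5-6 was 345 times higher in WT than in kFRA (284 to 424) and 493 times higher than in DH-LMP2A (398 to 618). For Ighv1-53 the ratios were 15040 (9516 to 25377) and 13390 (8999 to 20898). On the log2 scale, Ighv5-2 fell by 4.90 in kFRA (SE 0.637, adjusted p = 0.001 by edgeR) and Ighv1-53 fell by 14.13 (SE 1.18, adjusted p = 4.75e-05 by edgeR). In DH-LMP2A the falls were 5.13 for Ighv5-2 (SE 0.639, adjusted p = 0.00106) and 14.02 for Ighv1-53 (SE 1.16, adjusted p = 7.51e-05, both by edgeR). Ighv1-53 was picked for its high WT share and passed the filter only through its WT counts. Its p-values are thus no support for a fall.

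The libraries that stood apart carried much of the low counts behind these ratios. Of the Ighv1-53 counts, kFRA replicate 2 held 16 of 18 and DH-LMP2A replicate 3 held 22 of 24. Without them 2 counts were left in each genotype, and the ratios were 89228 (24701 to 736784) for kFRA and 104941 (29050 to 866537) for DH-LMP2A. The log2 fold changes were then -16.30 and -16.86. Ighv5-2 was 40.1 times higher in WT than in kFRA without replicate 2 (27.8 to 60.02), and Ighv5-6 was 621 times higher (451 to 882). In DH-LMP2A without replicate 3 the ratios were 22.4 for Ighv5-2 (17.4 to 29.4) and 451 for Ighv5-6 (350 to 590). Whether the fall of one segment differs from that of another was not tested.

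In each of the 2 comparisons with WT, all 116 tested rows had a lower fitted level than in WT and 115 of them were called, Ighv1-49 being the row that did not pass in either. Across all genes, 17.8% were called in kFRA against WT (11.1% lower, 6.68% higher) and 12.4% in DH-LMP2A against WT (7.3% lower, 5.07% higher). Most Ighv rows passed the filter only through their WT counts, so these counts are no support for a fall, and both comparisons share the WT libraries. Ighv1-49 had 55, 91 and 1778 counts in WT and none elsewhere (adjusted p = 0.0551 and 0.0642 by edgeR), and was named after its values were seen. The other 67 rows were not tested.

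By family, 15 shares of the Ighv counts were compared between WT and kFRA, and none overlapped. Each exact permutation p was 0.1, as was each value adjusted over the 15. Family 4 had a mean of 96.6% in kFRA, and the other families lay below their WT libraries. These shares are not independent, since Ighv4-1 fixes them. With Ighv4-1 left out, family 5 made up 61.9%, 45.4% and 58.7% of the kFRA counts and family 2 made up 23.8%, 12.4% and 22.2%, both above WT. In DH-LMP2A, family 5 held 66.4%, 78.1% and 26.4% and family 2 held 28.8%, 16.4% and 5.81%. Family 1, with its far larger number of rows, held 1.6%, 5.48% and 51.9% there.

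In each of these 2 genotypes, 1 library stood apart. DH-LMP2A replicate 3 had 176 counts outside the D-proximal window and Ighv4-1, spread over 45 segments, where replicates 1 and 2 had 5 and 4. kFRA replicate 2 had 125 such counts over 37 segments, where replicates 1 and 3 had 12 and 13. They were led by segments that also led in WT: Ighv1-53 had 22 counts in DH-LMP2A replicate 3 and 16 in kFRA replicate 2, and Ighv1-26 had 14 in each. Ighv1-80 had 15 and 9. Leaving aside Ighv4-1, DH-LMP2A replicate 3 shared 57.5% to 63.9% of its composition with WT libraries and kFRA replicate 2 shared 41.6% to 46.4%. The other libraries of these genotypes shared 7.57% to 20.0% with WT. Within the window, the 79 counts of DH-LMP2A replicate 3 lay between the 69 and 119 of the other libraries, whereas the 166 of kFRA replicate 2 exceeded the 72 and 50 of the others.

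Markers of other cells were compared between these libraries and the rest. The 7 B cell markers reported here (Ms4a1, Pax5, Cr2, Fcer2a, Cd22, Bank1, Ciita) were detected in every library. Their summed CPM was 304, 271 and 405 in DH-LMP2A, 139, 177 and 109 in kFRA, and 395, 529 and 251 in WT. DH-LMP2A replicate 3 was the highest of its genotype in all 7 markers, as in Pax5, the B cell identity factor (13.9, 12.9 and 43.4 CPM), and Fcer2a, the low-affinity IgE receptor CD23 (1.90, 1.58 and 11.3 CPM). In kFRA the sum was highest in replicate 2, led by Bank1 (39.4, 66.7 and 35.0 CPM). Pax5, Cr2, Cd22 and Ciita were also highest in that library, whereas Ms4a1 and Fcer2a were not. Pax5 was at 2.94, 9.80 and 8.59 CPM in kFRA, Ms4a1 (CD20) was highest in replicate 1 at 69.3, 62.8 and 39.1, and Fcer2a in replicate 3 at 1.71, 2.47 and 4.33.

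The other marker sets did not set both libraries apart in the same way. The 8 T cell markers summed to 40.6, 51.5 and 82.8 CPM in DH-LMP2A. Each was highest in replicate 3 except Cd4, which was lowest there. In kFRA the T cell markers summed to 33.1, 41.1 and 55.8 CPM, and replicate 2 was not the highest. The 8 erythroid markers summed to 1366, 1405 and 6873 CPM in DH-LMP2A, highest in replicate 3, and to 601, 1241 and 1508 in kFRA, where replicate 2 was not the highest. The 8 myeloid markers summed to 1249, 1568 and 523 in DH-LMP2A, lowest in replicate 3, and to 896, 1541 and 883 in kFRA, highest in replicate 2. The plasma cell markers summed to 36066, 34147 and 47160 in DH-LMP2A, highest in replicate 3, and to 30483, 20401 and 32064 in kFRA, lowest in replicate 2. The part of other cells in the remaining counts was not tested.

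The 8 plasma cell markers (Sdc1, Prdm1, Xbp1, Irf4, Jchain, Tnfrsf17, Mzb1, Slamf7) were detected in every library. Their sum was 18890 to 24141 CPM in WT and consisted mostly of Jchain, the joining chain of IgM and IgA, at 15678, 19912 and 17886. Sdc1, which encodes the CD138 used for the selection, was at 302, 394 and 537 CPM in WT, 693, 509 and 632 in kFRA and 582, 479 and 667 in DH-LMP2A. Relative to WT, 2 of the 8 were called higher and 1 lower in kFRA, and 3 higher and 1 lower in DH-LMP2A. Across all genes, 6.68% were called higher and 11.1% lower in kFRA, and 5.07% higher and 7.3% lower in DH-LMP2A. Without kFRA replicate 2, 3 of the 8 were higher and 1 lower in kFRA, in a fit that called 5632 of 14518 genes. Mzb1, a chaperone of IgM assembly, rose in both, by 1.22 and 1.80 on the log2 scale (adjusted p = 0.0107 and 0.0021 by edgeR). Tnfrsf17, the survival receptor BCMA, fell by 1.69 in kFRA and by 1.16 in DH-LMP2A (log2, adjusted p = 0.00253 and 0.0159 by edgeR).

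Marker sets of other cells also moved with the genotypes alongside the Ighv rows. Across all genes, 11.1% were called lower and 6.68% higher in kFRA, and 7.3% lower and 5.07% higher in DH-LMP2A. Of the 7 B cell markers, 5 were called lower in kFRA than in WT, or 6 without replicate 2. In DH-LMP2A 2 were called higher and 2 lower, or 1 higher and 4 lower without replicate 3. The kFRA calls of Cd22 and Ciita were kept in 6 of 6 fits that left out 1 library, those of Cr2 and Fcer2a in 2. The fit without kFRA replicate 2 called 5632 of 14518 genes, and that without DH-LMP2A replicate 3 called 1349 of 14510. The myeloid markers summed to 2025 to 3426 CPM in WT, 883 to 1541 in kFRA and 523 to 1568 in DH-LMP2A. Relative to WT, 4 of the 8 were called lower in kFRA, or 6 without replicate 2, and 1 in DH-LMP2A. The erythroid markers summed to 34.3 to 190 CPM in WT, 601 to 1508 in kFRA and 1366 to 6873 in DH-LMP2A. Relative to WT, 3 of the 8 were called higher in both kFRA and DH-LMP2A. In kFRA, Hba-a1 kept its call in 4, Alas2 in 3 and Hbb-bt in 2 of 6 fits that left out 1 library. In DH-LMP2A each kept it in 6 of 6. T cell markers summed to 33.1 to 99.5 CPM over all libraries. What part these cells have in the difference between genotypes was not tested.

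The machinery that joins and alters variable segments was read against the shares called over all genes, which were 17.8% in kFRA against WT, 12.4% in DH-LMP2A against WT and 5.02% in kFRA against DH-LMP2A. Of 12 recombination genes, 9 were tested and 2 passed in kFRA against WT. The RAG genes and Dntt, which adds nucleotides at the joints, were too low, at under 1 CPM in every library. Relative to WT, Poll, a polymerase that fills gaps at the joints, rose by 0.67 in kFRA (SE 0.181, adjusted p = 0.0333) and Lig4, the ligase that seals them, fell by 0.86 (SE 0.233, adjusted p = 0.0334, both log2 by edgeR). Lig4 kept its call in 1 and Poll in 2 of 6 fits that left out 1 library, and both kept it without kFRA replicate 2. Without that library, 2 of 10 tested were higher and 3 lower, in a fit that called 5632 of 14518 genes, 2904 of them lower. Over the 9 genes, the median log2 fold change was 0.06 in kFRA and 0.12 in DH-LMP2A relative to WT, and -0.04 and -0.01 over all genes tested.

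The 7 genes of hypermutation and class switching reported here were all tested. Polh, the polymerase that copies past damaged bases, fell by 1.15 in kFRA against WT (SE 0.219, adjusted p = 0.00748) and by 1.06 in kFRA against DH-LMP2A (log2, SE 0.218, adjusted p = 0.0249, both by edgeR). In DH-LMP2A against WT, the mismatch repair gene Msh6 rose by 0.47 (SE 0.129, adjusted p = 0.0442) and Apex1, an endonuclease of base excision repair, fell by 0.75 (SE 0.199, adjusted p = 0.0395, both log2 by edgeR). Without DH-LMP2A replicate 3 the adjusted p was 0.157 for Msh6, 0.12 for Apex1 and 0.0879 for Polh in kFRA against DH-LMP2A (edgeR), whereas Polh in kFRA against WT kept its call in 6 of 6 fits that left out 1 library.

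Of 6 partners of the heavy chain on the surface of B lineage cells, 3 were tested. Cd79a, a signalling chain of the antigen receptor, rose by 1.19 in DH-LMP2A against WT (log2, SE 0.252, adjusted p = 0.0145 by edgeR). Its CPM was 850, 884 and 1117 in DH-LMP2A, 712, 475 and 905 in kFRA and 344, 434 and 469 in WT, the WT libraries being the lowest. Vpreb3, a protein of the pre-B receptor complex, fell by 1.25 in kFRA against DH-LMP2A (log2, SE 0.26, adjusted p = 0.0257 by edgeR). The surrogate light chain genes Vpreb1, Vpreb2 and Igll1 stood at under 1 CPM in every library. Without DH-LMP2A replicate 3 the adjusted p was 0.0523 for Cd79a and 0.0686 for Vpreb3 (edgeR), so neither call held.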

How the data were processed

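The values are unnormalized read counts for each gene, as deposited by the authors in the column layout of featureCounts, per the file headers. STAR 2.4.0a, featureCounts, Subread 1.5.0-p3, DESeq2 and the builds mm10 and GRCm38 are named in the submitters' processing notes. The strand setting and the handling of reads that match several places are not given in the sources used here. The members, gene lists and tests were chosen with earlier results of these data known. Some genes of the B cell marker and hypermutation lists are not reported here and were left out of their sums and counts.

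Counts were tested with edgeR 4.0.16 (R 4.3.3). Genes passed filterByExpr by genotype (14199 genes, 116 of them Ighv), TMM factors (trimmed mean of M values) scaled the libraries, and the quasi-likelihood model had 1 coefficient for each genotype and took in all 9 libraries. Tests were 2-sided, with Benjamini-Hochberg adjustment over all genes tested and a threshold of 0.05. The standard error (SE) is the size of the log2 fold change over the root of its F statistic. CPM values are TMM-scaled, and shares use unscaled counts. The median log2 fold change over all genes was -0.04 in kFRA and -0.01 in DH-LMP2A against WT.

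Shares, ratios and diversity were compared by exact 2-sided permutation tests over libraries, 27 on library values and 15 on family shares, none of which can go below 0.1. Intervals of shares are exact Clopper-Pearson 95% intervals, which speak to counting error alone, because these reads carry no molecular identifiers and are not independent molecules. The floor of detection was set at 3 counts, or 0.139 to 0.194 CPM. Segments named are the 10 most used in WT, the 3 highest in each WT library, the 5 highest in kFRA and in DH-LMP2A, the 5 with the largest ratio between WT libraries, and the 5 with the smallest adjusted p between kFRA and DH-LMP2A. Replicates all differed by more than sampling noise (chi-square per degree of freedom 18.3 to 174). The edgeR step and the diversity estimates were tested on simulated data. The fold changes simulated for edgeR were far smaller than those of most Ighv rows, so that test does not speak to them. Alternatives were DESeq2 1.42.0 (size factors, Wald test), library size alone, other filters, only the 6 libraries compared, a stricter threshold, the replicate number as a block, other denominators and diversity measures, counts per length, functional rows only, leaving out the most counted segment, and leaving out each replicate. Leaving out Ighv4-1, the share near the D segments, and group values without DH-LMP2A replicate 3 and kFRA replicate 2 were added after seeing the data. Of the rows, only Ighv1-62-1 overlaps an exon of another gene.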

Additional observations from a re-analysis of the deposited data

How the results depend on the processing

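Of 280 alternative values for the comparisons, 238 were differences tested by permutation over libraries, where p cannot go below 0.1. Their side of the threshold was thus fixed, and says nothing of stability. In direction, 232 of these were as reported and 6 reversed. The other 42 were counts of rows called, and stayed within 1.5 times. All 6 follow from leaving out Ighv4-1, which holds most kFRA counts. Without Ighv4-1, the share within 200 kb of the D end, WT minus kFRA, was -65.51 percentage points in place of 6.20, and kFRA minus DH-LMP2A was 0.22 in place of -71.18. The WT minus kFRA share was -16.24 for family 2 and -47.91 for family 5. Without the most counted segment of each library these were -15.89 and -47.18. Of 373 values for named segments, 362 kept their call and 11 did not, all of them Ighv4-1 in kFRA against WT, at -0.63 to -1.01 on the log2 scale. Most of the 373 compare the segments most used in WT with WT, so their calls were largely fixed by that choice. The counts of rows called against WT have the same limit, since most rows passed the filter only through WT.

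Leaving out each replicate gave 112 to 117 rows called in kFRA against WT, 114 to 118 in DH-LMP2A against WT, and 1 in kFRA against DH-LMP2A. Over all 14518 genes tested, the fit without kFRA replicate 2 called 5632 in kFRA against WT and 3299 in kFRA against DH-LMP2A. In effective number of segments, WT minus DH-LMP2A ranged from 13.9 to 25.7. Where an arm had 2 libraries left, the spread was pooled over all groups.

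The replicate numbers of the titles name different mice, and the deviations of same-numbered libraries correlated between -0.21 and 0.20. Libraries with different numbers were not compared in this way, so a batch shared by same-numbered libraries was not tested. With the replicate number as a block, 116 rows were called in each comparison with WT and 1 in kFRA against DH-LMP2A, and the smallest paired permutation p was 0.25. Fitted to their own 6 libraries alone, kFRA and DH-LMP2A left 4 Ighv rows to test. Depth limits what can be said of most segments outside WT, where 124 rows in kFRA and 123 in DH-LMP2A had no count.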
